A study of Mus musculus with 12 samples.

Results

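Fpr1, Fpr2 and Fpr3, the formyl peptide receptor genes of mouse chromosome 17, were examined in 12 ATAC-seq libraries of HoxB8 cells. HoxB8 cells are progenitors from mouse bone marrow that an estrogen-dependent Hoxb8 keeps dividing in medium with estrogen and stem cell factor (SCF). They were harvested 48 h after estrogen was withdrawn. The 4 groups had 3 libraries each. The sgB2/T618I cells carried a guide against Asxl1 (B2) and the pMICH vector with CSF3R T618I. The sgNT/T618I cells carried a non-targeting guide and the same CSF3R T618I vector. The sgB2/Empty cells carried the Asxl1 guide and the empty pMICH vector, and the sgNT/Empty cells carried the non-targeting guide and the empty vector. All 4 groups therefore share the cell line, a guide, a pMICH vector and the estrogen withdrawal. CSF3R is the receptor of granulocyte colony-stimulating factor and T618I is an activating mutation of it. Asxl1 is a chromatin regulator, and the series describes the guide as giving a truncation, which peak lists cannot check. Separate cultures or clones are not named for the replicates, so the p-values below measure the spread between these libraries only.

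The 3 genes were taken by name from 21887 protein-coding genes, each with its span extended by 50 kb on both sides. On GRCm38.p6, the assembly behind mm10, Fpr1 (gene ID 14293) spans chr17:17876471-17883939 on the minus strand. Fpr2 (gene ID 14289) spans chr17:17887824-17893952 on the plus strand, and Fpr3 (gene ID 14294) spans chr17:17970458-17971677, also on the plus strand. The starts of Fpr1 and Fpr2 face away from each other across a short gap, and Fpr3 lies further towards higher coordinates. Of the 3 genes, Fpr1 and Fpr2 passed the filter on coverage used for testing, and Fpr3 did not.

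Formyl peptide receptors are G protein-coupled receptors of neutrophils and other myeloid cells. They sense peptides that begin with formylmethionine, which bacteria and damaged mitochondria release, and they drive chemotaxis, degranulation and the oxidative burst. Fpr1 is the high-affinity receptor of such peptides. Fpr2 binds a wider range of ligands, among them serum amyloid A, annexin A1 and the cathelicidin Camp. The mouse family also holds Fpr-rs genes, several of which are expressed by sensory neurons of the vomeronasal organ. ATAC-seq marks open chromatin, so the values here describe where peaks of open chromatin were called, not how much RNA the genes made.

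No library had a peak at the start of any of the 3 genes, taken as 250 bases before to 50 bases after it. Of 17492 protein-coding genes with such a promoter window, 50.7% had a peak in at least 1 library and 40.5% in all 12. The 3 promoter sequences are shown because these are the stretches without a called peak. They are RefSeq sequences of GRCm38.p6, written from 5′ to 3′ on the gene's strand, at chr17:17883890-17884189 (minus strand) for Fpr1, chr17:17887574-17887873 (plus) for Fpr2 and chr17:17970208-17970507 (plus) for Fpr3. Capitals mark motif matches.
Fpr1: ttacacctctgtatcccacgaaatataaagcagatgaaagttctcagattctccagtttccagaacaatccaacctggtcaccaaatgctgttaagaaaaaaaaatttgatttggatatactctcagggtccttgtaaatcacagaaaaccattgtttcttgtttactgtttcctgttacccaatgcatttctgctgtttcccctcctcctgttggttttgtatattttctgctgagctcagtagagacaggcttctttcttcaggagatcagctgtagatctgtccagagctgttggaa
Fpr2: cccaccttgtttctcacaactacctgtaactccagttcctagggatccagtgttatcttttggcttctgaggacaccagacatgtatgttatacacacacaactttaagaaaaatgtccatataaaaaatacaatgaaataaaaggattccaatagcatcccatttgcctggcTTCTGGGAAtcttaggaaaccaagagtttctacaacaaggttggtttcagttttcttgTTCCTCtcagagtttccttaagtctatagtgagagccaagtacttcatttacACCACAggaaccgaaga
Fpr3: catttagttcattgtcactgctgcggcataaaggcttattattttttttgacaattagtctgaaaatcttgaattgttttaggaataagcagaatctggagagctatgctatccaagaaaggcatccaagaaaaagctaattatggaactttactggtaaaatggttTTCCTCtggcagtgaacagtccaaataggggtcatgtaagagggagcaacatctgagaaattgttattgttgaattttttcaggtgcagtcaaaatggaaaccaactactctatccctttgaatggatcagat

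The motifs were searched on both strands and their matches do not overlap one another in these windows. In the Fpr2 promoter TTCNNNGAA, the STAT motif, began at position -77, GAGGAA, an ETS motif of the PU.1 type, at -19 and TGTGGT, the RUNX motif, at 33, each counted from the start base as 0. The ETS and RUNX matches are on the opposite strand and so read TTCCTC and ACCACA. The Fpr3 promoter held GAGGAA at -83, again on the opposite strand. No match to these or to TTGCNNAA (C/EBP) or TGANTCA (AP-1) was found in the Fpr1 window. Among 32851 promoters of this length, 8.30% held the STAT motif, 28.3% the ETS motif, 16.8% the RUNX motif, 10.8% the C/EBP motif and 7.81% the AP-1 motif. A match is a match of letters only, and a promoter without one says nothing of whether the factor acts there.

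The 12 peak lists held 18484 to 32975 peaks covering 9.23 to 17.9 Mb, with 12.6 to 17.9 Mb in T618I libraries and 9.23 to 16.8 Mb in Empty libraries. Covered length in a window was therefore scaled to the mean total of 14.0 Mb and is given as scaled bp. Read depth is unknown, and no interval from counts can be given. Peaks of different libraries that overlapped by at least 1 bp were merged, which gave 56682 regions in the series. Of the windows of a myeloid marker list, 8 of 8 genes had enough coverage to be tested. With T618I, 2 of them rose, Csf3r and Spi1, and 2 others fell, Mpo and Elane, which encode granule proteins of neutrophil precursors, while 4.06% of all genes tested rose and 2.43% fell. Coverage enough to test was also found around 3 of 3 T cell, 3 of 3 B cell, 3 of 3 erythroid, 3 of 3 vomeronasal and 2 of 3 macrophage genes, so window coverage does not by itself name a cell type. In the limma fit 0 of these changed with T618I (1 B cell gene had an unadjusted p under 0.05). With sgB2 over both vectors the erythroid gene Gata1 rose, where 2.83% of all genes tested passed.

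The windows of Fpr1 and Fpr2 held the same 8 regions, here called R1 to R8 in order of coordinate, so both genes have 1 shared set of values. R1 (chr17:17837952-17838628) overlaps the spans of both Has1 and Spaca6, and R2 (chr17:17845376-17845665) overlaps that of Has1. R3 (chr17:17860074-17860555) and R4 (chr17:17865081-17865639) overlap the span of Gm36907. R5 (chr17:17870944-17872275) lies in no gene span, 4.20 kb past the 3′ end of Fpr1. R6 (chr17:17882609-17883270) lies inside Fpr1, 0.669 to 1.33 kb downstream of its start. R7 (chr17:17889777-17890491) lies inside Fpr2, 1.95 to 2.67 kb downstream of its start. R8 (chr17:17900618-17901202) lies in no gene span, 6.67 kb past the 3′ end of Fpr2. The reference used here gives gene spans, so whether R6 and R7 are exonic or intronic was not analysed here.

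**Figure D1:**
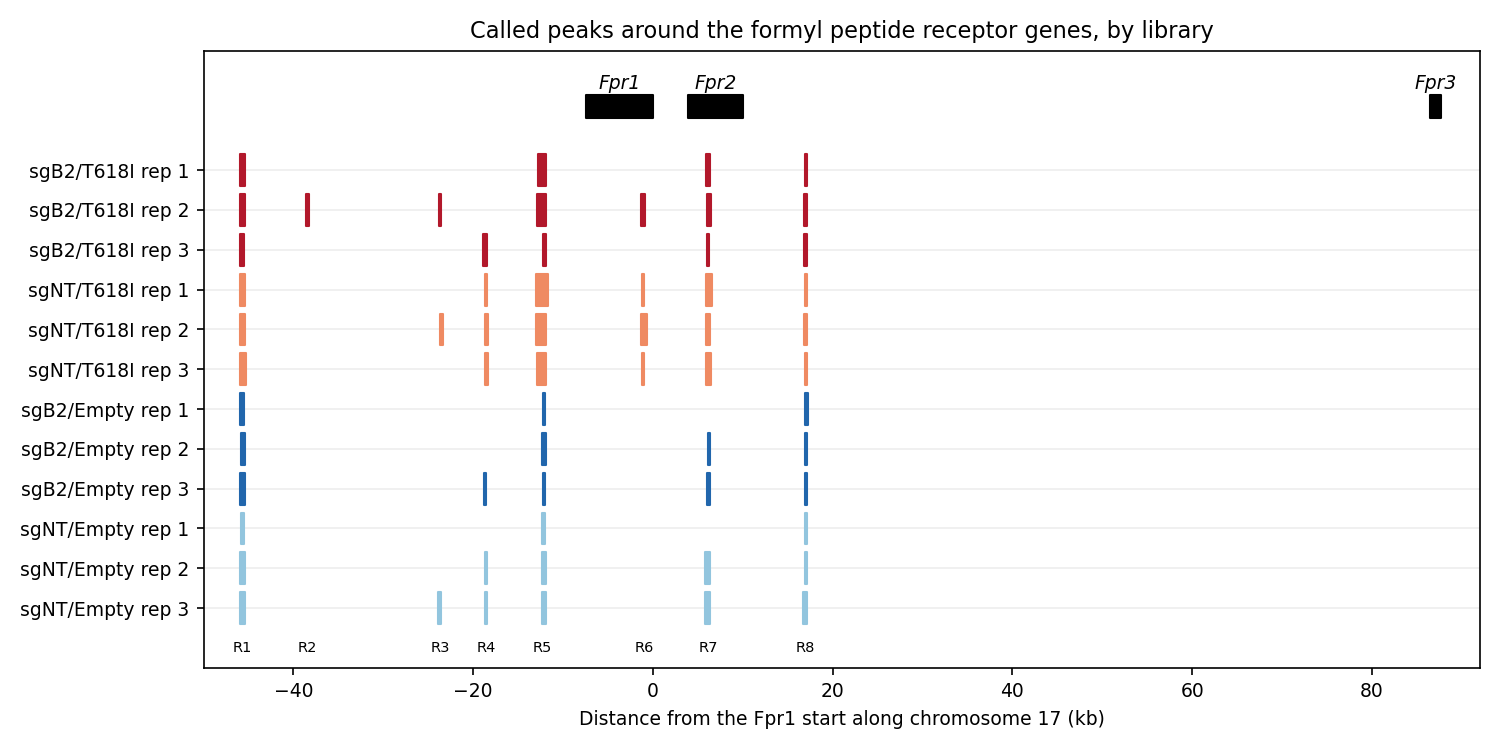
Called peaks in each library (rows, 3 per group) against distance from the Fpr1 start along chromosome 17 in kb, with the gene spans in black and R1 to R8 named below. R1, R5 and R8 have a peak in all 12 libraries, R6 has a peak in T618I libraries alone, and no peak lies within 50 kb of Fpr3.

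R1, R5 and R8 were called in all 12 libraries. R7 was called in 10, R4 in 7, R6 in 4, R3 in 3 and R2 in 1. The authors' −log10 p orders the peaks of a list, and by that order R1 stood ahead of 74.8 to 94.0% of the other peaks of its list, with the highest median of the 8. R1 led in the 6 T618I libraries, while R5 stood ahead of it in 5 Empty libraries and R8 in replicate 2 of sgB2/Empty. R5 stood ahead of 64.6 to 87.7%, R8 of 48.6 to 85.9% and R7 of 21.1 to 67.9%. R6, where called, stood ahead of 42.6 to 64.1%, and R4 of 17.5 to 57.9%. R3 ranged from 16.0 to 63.3%, and R2 stood ahead of 17.1% in its only library, replicate 2 of sgB2/T618I. R1, R5 and R8, which were called in all 12 libraries and lie outside the receptor genes, thus ranked highest by their medians, at 86.8, 79.5 and 69.0%. R6 and R7 inside the receptor genes had medians of 46.9 and 46.7%. R3 and R4, also outside, were near these at 51.7 and 49.8%, and R2, outside as well, was lower.

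Peak coverage around Fpr1 and Fpr2 was higher in T618I cells. In sgB2/T618I cells the 3 libraries had 2180, 2553 and 1896 scaled bp. In sgNT/T618I cells they had 2735, 3259 and 2715 scaled bp. In sgB2/Empty cells they had 1597, 1674 and 1828 scaled bp, and in sgNT/Empty cells 1530, 1874 and 2084 scaled bp. The 3 sgNT/T618I libraries were the highest of the 12, and 1 T618I library, replicate 3 of sgB2/T618I, lay within the range of the Empty libraries. In groups this was 2210 ± 330 scaled bp in sgB2/T618I, 2903 ± 309 in sgNT/T618I, 1700 ± 117 in sgB2/Empty and 1829 ± 279 in sgNT/Empty (SD, n = 3 each). The order from high to low was therefore sgNT/T618I, sgB2/T618I, sgNT/Empty and sgB2/Empty.

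**Figure D2:**
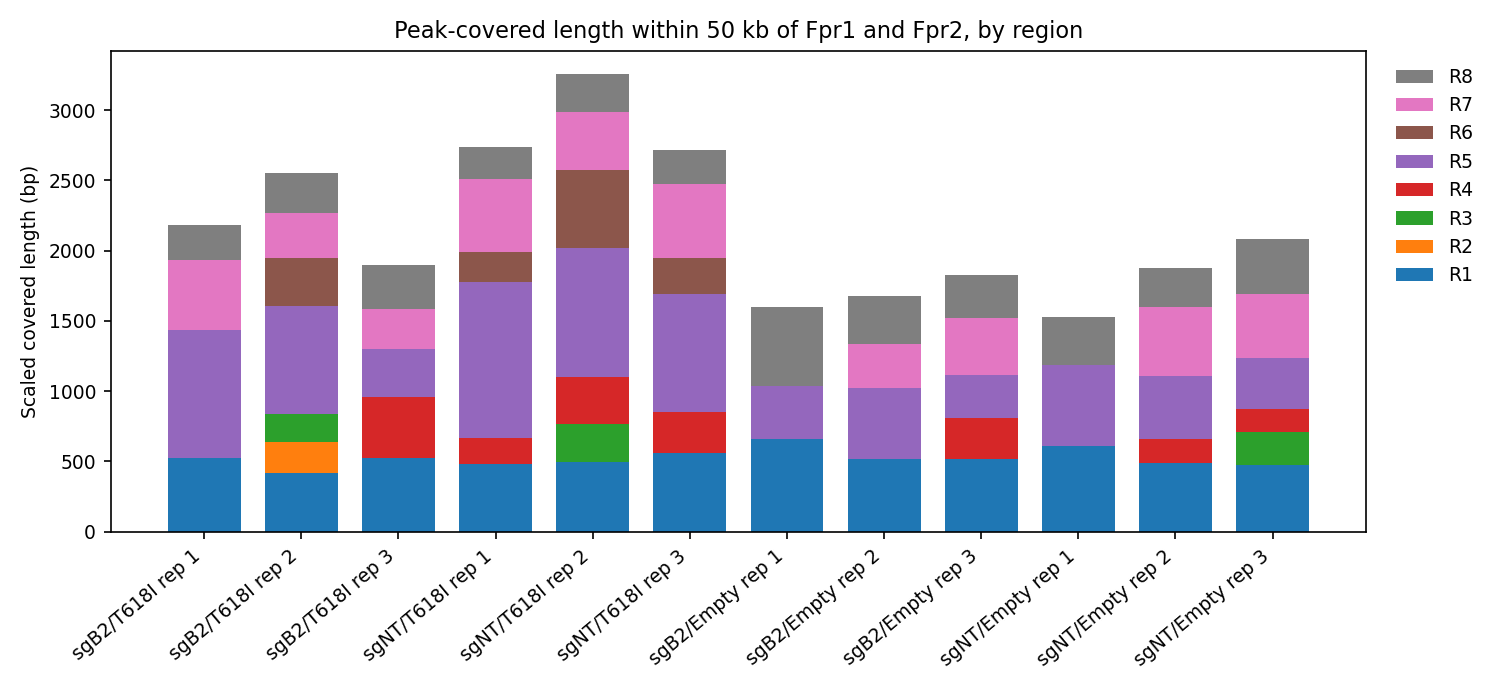
Scaled covered length (bp) within 50 kb of Fpr1 and Fpr2 in each library, with each bar divided into R1 to R8. The T618I libraries reach 1896 to 3259 scaled bp and the Empty libraries 1530 to 2084, and R5 and R6 make up much of what the T618I bars have in addition.

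Over both guides, T618I libraries averaged 2556 ± 475 scaled bp and Empty libraries 1765 ± 204 (SD, n = 6 each). The log2 change was 0.42 ± 0.10 (SE; limma, Benjamini-Hochberg adjusted p = 0.0185 over 15286 genes), a 1.34-fold difference on the scale of scaled bp + 500. Fpr1 and Fpr2 therefore rose, as did 4.06% of all genes tested. This is 1 measurement for both genes, and Has1 has the same value because its window holds the same 8 regions. Spaca6, which R1 also overlaps, rose by 0.55 ± 0.11 (log2, SE, limma adjusted p = 0.00832). Spaca6 also passed in sgNT/T618I against sgNT/Empty (limma adjusted p = 0.0459) and not in sgB2/T618I against sgB2/Empty (limma adjusted p = 0.211). Its difference from the receptor genes was not tested. The median log2 change of all genes was -0.05. Without scaling to total covered length the Fpr1 and Fpr2 change was 0.67 with an adjusted p of 0.0502 (limma). The median over all genes then moved to 0.20. Without replicate 2 of sgNT/T618I the Fpr1 and Fpr2 change was 0.39 with an adjusted p of 0.0586 (limma). When peaks were counted in place of covered length it was 0.23 with an adjusted p of 0.327 (limma), so the call was made for covered length and not for the number of peaks.

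The number of peaks in a list also differed between libraries, and with that number as a covariate the T618I change was 0.34 with an adjusted p of 0.0468 (limma).

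Within each guide the T618I difference did not pass the threshold of 0.05. In sgNT/T618I against sgNT/Empty the log2 change was 0.55 ± 0.14 (SE; limma adjusted p = 0.0632), in a comparison where 1.49% of genes passed. In sgB2/T618I against sgB2/Empty it was 0.29 ± 0.14 (SE; limma adjusted p = 0.345), where 1.6% passed. The interaction, which is the T618I change in sgB2 cells minus that in sgNT cells, was -0.26 with a 95% interval of -0.68 to 0.17 and an adjusted p of 0.999 (limma), and 0.00654% of genes passed. A difference between the T618I changes in the 2 guide backgrounds was thus not shown.

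The Asxl1 guide gave no call at these genes. Over both vectors, sgB2 libraries averaged 1955 ± 356 scaled bp and sgNT libraries 2366 ± 644 (SD, n = 6 each), and the log2 change was -0.20 ± 0.10 (SE; limma adjusted p = 0.339), against 2.83% of genes that passed. In sgB2/T618I against sgNT/T618I it was -0.33 with a 95% interval of -0.63 to -0.03 and an adjusted p of 0.423 (limma), where 0.36% passed. In sgB2/Empty against sgNT/Empty it was -0.08 with an interval of -0.37 to 0.22 and an adjusted p of 0.918 (limma), where 0.353% passed. This last value was the nearest to 0 of the guide comparisons, and its sign changed when replicate 3 of sgNT/Empty was left out, at 0.0015. With both modifications, sgB2/T618I against sgNT/Empty, it was 0.22 ± 0.14 (SE; limma adjusted p = 0.460), where 3.75% passed. All of these comparisons draw on the same 12 libraries, and several share a group.

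**Figure D3:**
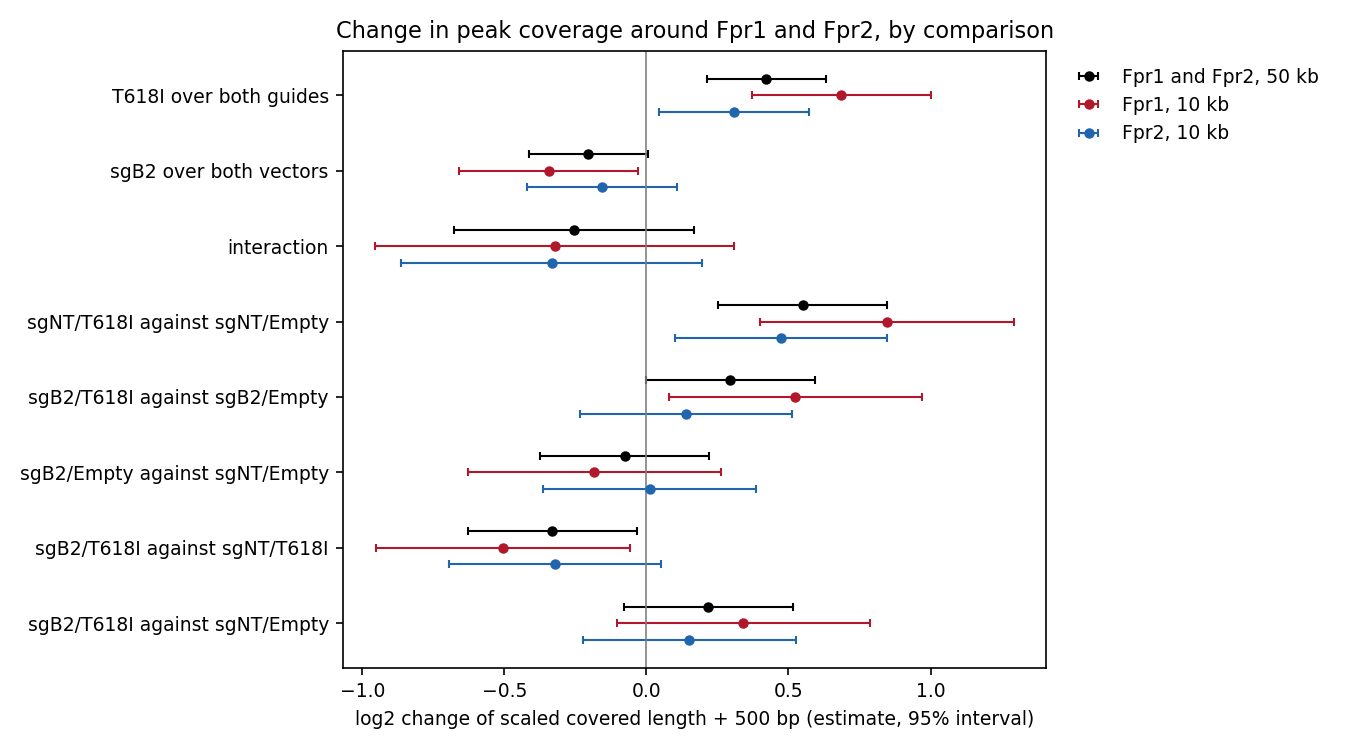
Log2 change of scaled covered length + 500 bp with its 95% interval for each of 8 comparisons, for the shared 50 kb window of Fpr1 and Fpr2 and for the 10 kb window of each gene. T618I over both guides is 0.42 for the shared window, 0.69 for Fpr1 within 10 kb and 0.31 for Fpr2 within 10 kb.

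A window of 10 kb separates the receptors, since it holds R5, R6 and R7 for Fpr1 and R6, R7 and R8 for Fpr2. Around Fpr1 it held 1156 ± 457 scaled bp in sgB2/T618I, 1786 ± 141 in sgNT/T618I, 635 ± 233 in sgB2/Empty and 778 ± 185 in sgNT/Empty (SD, n = 3 each). The T618I log2 change of Fpr1 was 0.69 ± 0.15 (SE; limma adjusted p = 0.0231). Around Fpr2 it held 764 ± 179 scaled bp in sgB2/T618I, 1074 ± 148 in sgNT/T618I, 641 ± 75.8 in sgB2/Empty and 653 ± 271 in sgNT/Empty. The T618I log2 change of Fpr2 was 0.31 with a 95% interval of 0.04 to 0.57 and an adjusted p of 0.204 (limma), so it did not pass. The 2 narrow windows share R6 and R7, and the difference between the 2 genes was not tested.

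R5 carried the most of the T618I difference. The whole window differed by 792 scaled bp between T618I and Empty means, of which R5 gave 386 scaled bp (48.7%), R6 228 (28.8%), R7 151 (19.0%) and R4 103 (13.0%). R1 and R8 went the other way, at -45.4 and -107 scaled bp, and R2 and R3 gave 37.8 and 38.8. Single libraries moved several of these values. None of the values passed a test after adjustment by the exact method, which called 0 regions in the series. R7 was 71.7 without replicate 1 of sgNT/Empty and 90.9 without replicate 1 of sgB2/Empty, and R4 was 31.4 without replicate 3 of sgB2/T618I. R1 was -21.4, -24.1 and -27.0 without replicate 1 of sgB2/Empty, replicate 1 of sgNT/Empty and replicate 2 of sgB2/T618I, in that order.

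The R5 peak was 868, 979 and 311 bp wide in sgB2/T618I and 1332, 1036 and 974 bp wide in sgNT/T618I. It was 252, 439 and 290 bp wide in sgB2/Empty and 381, 464 and 429 bp wide in sgNT/Empty. Thus 5 of 6 T618I libraries had a peak of at least 868 bp, the 6 Empty libraries had at most 464 bp, and replicate 3 of sgB2/T618I lay among the Empty libraries. The additional length was mostly on the side away from Fpr1: the peak began between 17870944 and 17871153 in those 5 T618I libraries and between 17871548 and 17871711 in the Empty libraries, while replicate 3 of sgB2/T618I began at 17871676. The far end, towards Fpr1, lay between 17871986 and 17872275 in T618I libraries and between 17871962 and 17872020 in Empty libraries. The authors' fold over background went the other way from width. It was 5.06, 5.26 and 8.11 in sgB2/T618I and 4.78, 5.42 and 5.65 in sgNT/T618I. In sgB2/Empty it was 8.65, 7.88 and 9.98, and in sgNT/Empty 7.58, 7.55 and 8.02. The 5 T618I libraries with the wider peak thus had a lower fold than every Empty library. These widths are not scaled to total covered length, and the share of all regions that split in this way was not counted.

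**Figure D4:**
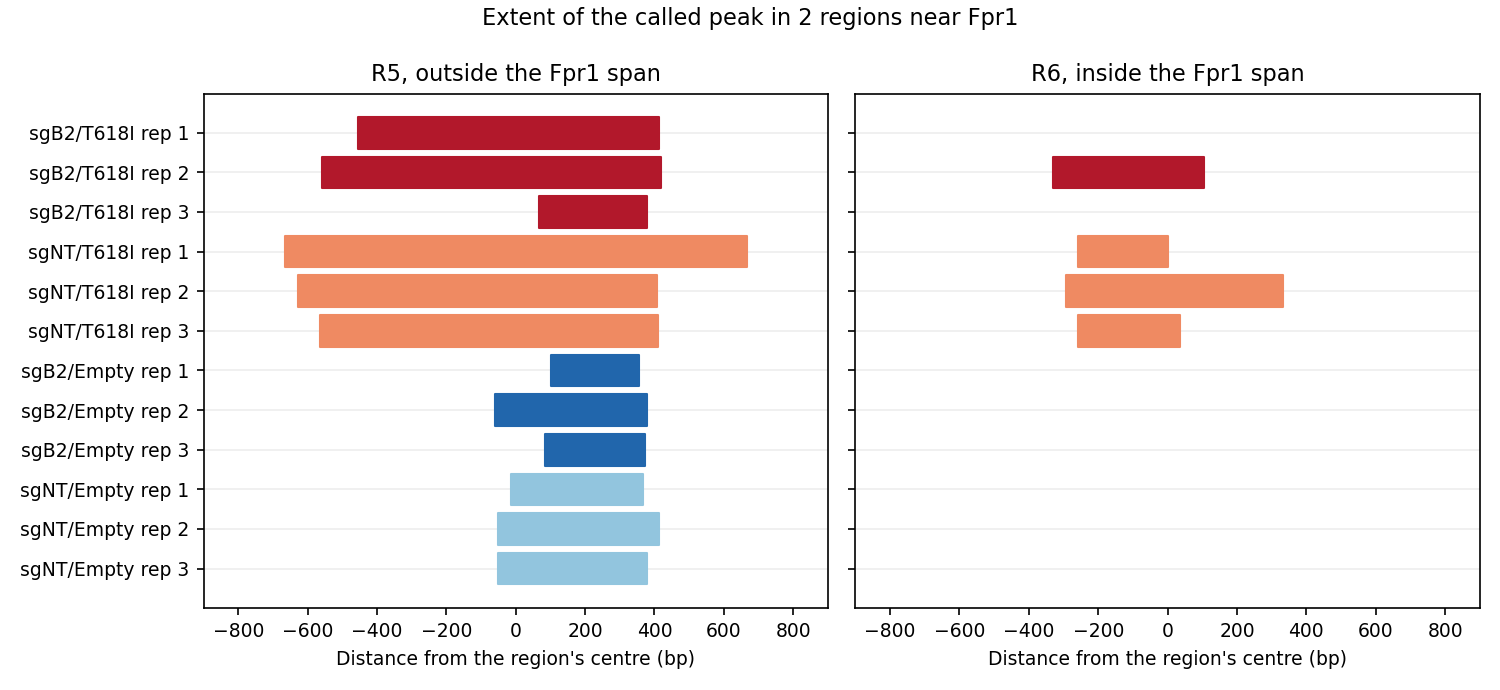
Extent of the called peak in R5 and R6 in each library, as distance from the centre of the region in bp. In R5 the bar is 868 to 1332 bp long in 5 of 6 T618I libraries and 252 to 464 bp in Empty libraries. In R6 there is a bar in 4 of 6 T618I libraries and in no Empty library.

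By the authors' −log10 p, R5 stood ahead of 64.6 to 85.2% of the other peaks in sgB2/T618I, 72.4 to 80.0% in sgNT/T618I, 76.0 to 87.7% in sgB2/Empty and 76.8 to 86.8% in sgNT/Empty. Lists differ in length, so these places are given side by side and nothing is read from them.

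In scaled length, R5 held 814 ± 256 scaled bp in T618I libraries and 429 ± 101 in Empty libraries (SD, n = 6 each). Over the 13356 regions called in all 12 libraries the median ratio of T618I to Empty means was 0.879, and 0.547% of them had a ratio at least as high as that of R5. In an exact permutation test stratified by guide (400 arrangements, two-sided, smallest possible p 0.005) R5 gave p = 0.015, and 0.141 after Benjamini-Hochberg adjustment over 23726 regions. That exact test called 0 regions in the whole series, while 4991 had an unadjusted p under 0.05 and 1356 reached its smallest p. With that many at the smallest p, no region could pass after adjustment. A limma fit across the same regions, added after the data had been seen, called 1027 regions higher and 411 lower. It gave R5 a log2 change of 0.48 ± 0.12 (SE) and an adjusted p of 0.0399, where 4.33% of regions rose. The fit also covered the other regions of this locus found in at least 6 libraries, whose limma values are not given here. The limma call of R5 was lost in 9 of the 12 fits that each left out 1 library, with adjusted p between 0.00453 and 0.102. For the guide, R5 held 534 ± 247 scaled bp in sgB2 libraries and 709 ± 293 in sgNT libraries (exact permutation p = 0.1).

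R6, the region inside Fpr1, was called in 4 of 6 T618I libraries and 0 of 6 Empty libraries. It was called in 3 of 3 sgNT/T618I libraries, with widths of 260, 626 and 296 bp, and in 1 of 3 sgB2/T618I libraries, replicate 2, with 436 bp. That sgB2/T618I library had the longest list of the 12, with 32975 peaks. The authors' fold of R6 over background was 4.83, 4.52 and 6.31 in the 3 sgNT/T618I libraries and 4.66 in the sgB2/T618I library. The exact stratified permutation test of its presence gave p = 0.05 for T618I, and 0.721 after adjustment over 23757 regions. That test called 0 regions in the series. With 286 regions at its smallest p of 0.005, none could pass after adjustment, so the adjusted p decides nothing about R6. Of the 37113 regions found in at least 2 libraries, 3.24% were called in 3 of 3 sgNT/T618I libraries and 0 of 3 sgNT/Empty libraries, as R6 was. For the guide the exact p was 0.4.

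R7, the region inside Fpr2, was called in 6 of 6 T618I libraries and 4 of 6 Empty libraries. The 2 libraries without it were replicate 1 of sgB2/Empty and replicate 1 of sgNT/Empty, which also had the smallest covered totals of the 12, 9.46 and 9.23 Mb. R7 was 482, 415 and 254 bp wide in sgB2/T618I, 625, 470 and 609 bp in sgNT/T618I, 273 and 381 bp in the other 2 sgB2/Empty libraries and 505 and 552 bp in the other 2 sgNT/Empty libraries. It held 429 ± 106 scaled bp in T618I libraries and 278 ± 224 in Empty libraries (SD, n = 6 each, exact permutation p = 0.22). Where R7 was called in an Empty library, its scaled length lay within the range of the T618I libraries, 283 to 527 scaled bp.

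R8, past the 3′ end of Fpr2, had a lower mean scaled length in T618I libraries, which did not pass after adjustment. It held 262 ± 32.5 scaled bp in T618I libraries and 369 ± 102 in Empty libraries (SD, n = 6 each, exact permutation p = 0.01, adjusted p = 0.118 over 23726 regions). With 1356 regions at the smallest p of 0.005, no region could pass after adjustment, so the adjusted p decides nothing about R8. The groups overlapped, at 225 to 311 scaled bp in T618I and 275 to 561 in Empty libraries. The highest value came from replicate 1 of sgB2/Empty, and without that library the difference was -67.0 scaled bp in place of -107. In unscaled length it was -35.5 bp.

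R1 was called in all 12 libraries, with 500 ± 49.3 scaled bp in T618I libraries and 545 ± 74.5 in Empty libraries (SD, n = 6 each, exact permutation p = 0.28), and the sign of this difference changed without scaling, at 71.2 bp. Its place by the authors' −log10 p was higher in T618I libraries. It stood ahead of 92.1 to 94.0% of the other peaks in sgB2/T618I and 88.6 to 90.7% in sgNT/T618I. In sgB2/Empty this was 78.8 to 83.7%, and in sgNT/Empty 74.8 to 84.9%. Lists differ in length, these places were not tested, and the share of all regions whose places split in this way was not counted. R4 was called in 4 of 6 T618I libraries and 3 of 6 Empty libraries, with 208 ± 179 scaled bp in T618I and 104 ± 122 in Empty libraries (SD, n = 6 each, exact permutation p = 0.23). Of the groups, 3 of 3 sgNT/T618I libraries had a peak, against 1 of 3 in sgB2/T618I, 1 of 3 in sgB2/Empty and 2 of 3 in sgNT/Empty. R3 was called in 1 library each of sgB2/T618I, sgNT/T618I and sgNT/Empty.

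Fpr3 had no peak within 50 kb of its span in any of the 12 libraries, so it had 0 scaled bp throughout and was not tested. The nearest peak towards lower coordinates was R8, 69.3 to 69.4 kb away. The nearest towards higher coordinates was 487 to 587 kb away. Such empty windows were found for 3344 of 21887 protein-coding genes (15.3%). With a window of 100 kb Fpr3 takes in R5 to R8, and its T618I log2 change was then 0.48 ± 0.13 (SE; limma adjusted p = 0.0244), from peaks that are also those of Fpr1 and Fpr2. The vomeronasal receptor genes Fpr-rs3, Fpr-rs4, Fpr-rs6 and Fpr-rs7 also had no peak within 50 kb in any library.

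Among 32 other genes of chemoattractant signalling, all 32 of which were tested, 4 rose with T618I and 0 fell, where 4.06% of all genes tested rose and 2.43% fell, with a median log2 change of 0.04 against -0.05 over all genes. For sgB2 over both vectors and for the interaction 0 of 32 passed in the limma fit, where 2.83% and 0.00654% of all genes tested passed. In these comparisons 2 and 3 of the 32 genes had an unadjusted p under 0.05. The 4 that rose each lost the call under 9 to 18 of their alternatives.

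Of 7 other chemoattractant receptors 2 rose, where 4.06% of all genes did, and these 2 are neighbours. Cxcr2, a chemokine receptor of neutrophils, changed by 0.62 ± 0.16 (log2, SE; limma adjusted p = 0.0287). Cxcr1 changed by 0.50 ± 0.13 (limma adjusted p = 0.0333), and the windows of this pair overlap. Ptafr, the receptor of platelet-activating factor, was at 0.13 and did not pass. The complement receptors C5ar1 and C5ar2 were at -0.02 and 0.00. Of 5 ligand genes 0 passed in the limma fit, where 4.06% of all genes rose and 2.43% fell, and 0 had an unadjusted p under 0.05. Saa1 and Saa3, which encode serum amyloid A proteins, were at 0.14 and 0.11, and Anxa1, which encodes annexin A1, at -0.12. The windows of Saa1 and Saa3 overlap, and their mean scaled bp were equal in sgB2/T618I, sgNT/T618I and sgB2/Empty, so their values are not separate.

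Of 14 transducers 2 rose and 0 fell, where 4.06% of all genes rose and 2.43% fell. Gng2, a G protein gamma subunit, changed by 0.47 ± 0.12 (log2, SE; limma adjusted p = 0.0340). Prex1, an exchange factor for Rac, changed by 0.39 ± 0.11 (limma adjusted p = 0.0481). Gnai3, an inhibitory G protein alpha subunit, was at -0.34 and did not pass (limma adjusted p = 0.110). In sgB2/T618I against sgNT/Empty it was the 1 pathway gene of 32 that passed: Gnai3 fell, with 2460 ± 583 scaled bp in sgB2/T618I and 4194 ± 739 in sgNT/Empty (SD, n = 3 each), a log2 change of -0.67 ± 0.17 (SE; limma adjusted p = 0.0426), where 3.75% of genes passed. With T618I over both guides, 0 of 6 genes of receptor desensitisation passed in the limma fit, where 4.06% of all genes rose and 2.43% fell. Of these 6 genes, 1 had an unadjusted p under 0.05. Rgs2, a regulator of G protein signalling, was at 0.42 (limma adjusted p = 0.0723), Arrb1, a beta-arrestin, at 0.22 and Grk2, a receptor kinase, at -0.10.

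**Figure D5:**
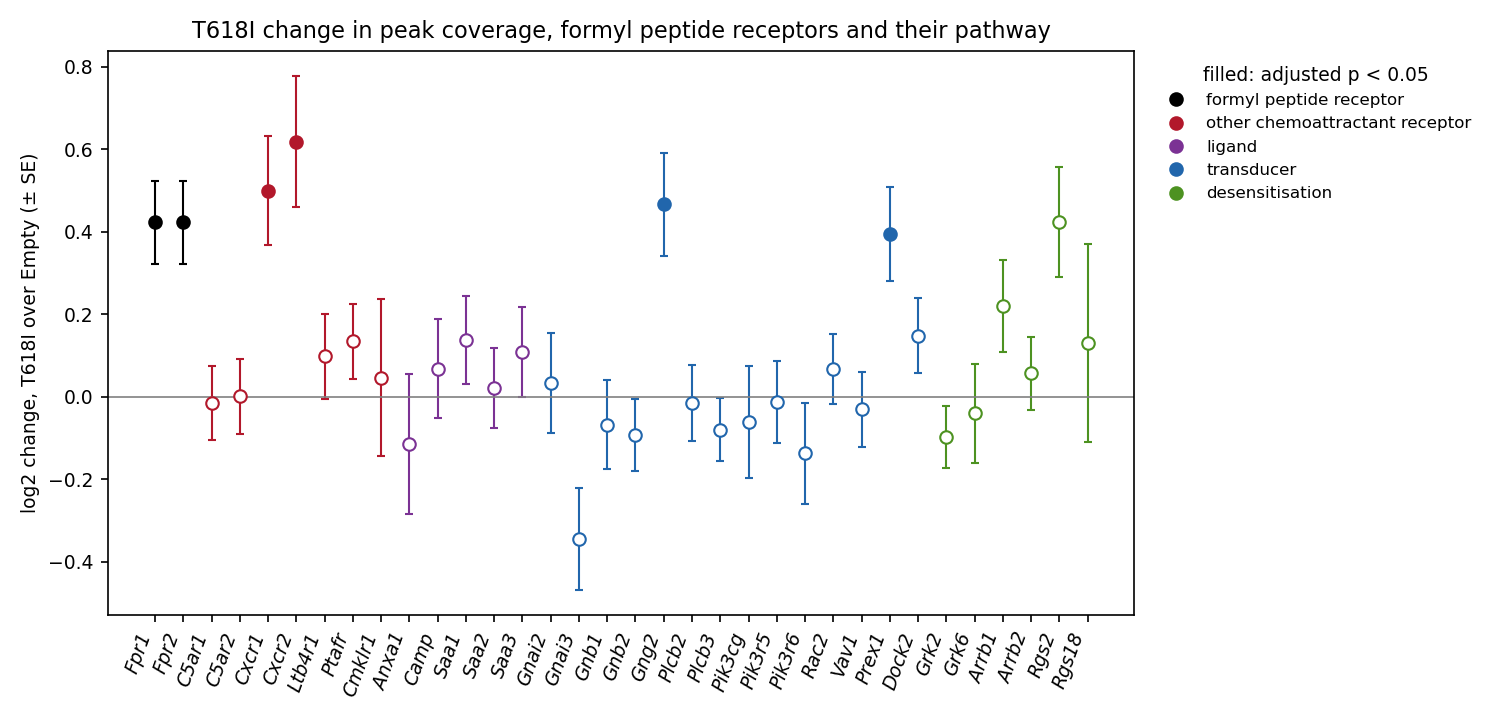
Log2 change of scaled covered length with T618I over both guides, with its SE, for Fpr1, Fpr2 and 32 other genes of chemoattractant signalling, coloured by role and filled where the adjusted p was below 0.05. Fpr1 and Fpr2 share 1 value of 0.42, and Cxcr2, Cxcr1, Gng2 and Prex1 are the 4 others that passed.

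The genes whose coverage over the 12 libraries was most like that of Fpr1 and Fpr2 were Siglec1 (Pearson r 0.96), Cdk14 (0.95), Olfr373 (0.95), Cmah (0.94) and Ipcef1 (0.93), each on another chromosome. The 12 points are libraries that share the scaling and the 4 groups, so these values are a description. Their T618I log2 changes were 0.74, 0.51, 0.74, 0.58 and 0.71, in the same order. Siglec1 had 1115 to 2604 scaled bp in T618I libraries and 537 to 1159 in Empty libraries. In Siglec1, as around Fpr1 and Fpr2, replicate 3 of sgB2/T618I was the lowest T618I library and replicate 2 of sgNT/T618I the highest. These genes were chosen for their likeness over the same 12 libraries. Neither this order nor their T618I changes are therefore a separate result.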

How the data were processed

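Each of the 12 libraries had its own list of broad peaks from the authors, with no read counts, so depth is unknown. Per the submitters' processing notes, the tools were BWA 0.7.17, SAMtools 1.9, bedtools 2.30, MACS2 2.2.7.1 and deepTools 3.5, with mm10. The authors' fold, a ratio over background, and their deposited −log10 p and q values served to describe, rank or filter peaks within a list.

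Peak-covered length in each gene span ± 50 kb was scaled to equal totals. After adding 500 bp, log2 values were fitted with limma 3.58.1 (trend, R 4.3.3) over all 12 libraries, for 15286 protein-coding genes whose mean reached 500 bp. P-values were adjusted by Benjamini-Hochberg per comparison, with a threshold of 0.05. Merged regions were tested by exact stratified permutation. Adjustment ran over all regions tested. For peak presence this was as designed, while for scaled covered length the design had named the regions of this locus alone. Scripts used python 3.11.15, numpy 2.4.6 and pandas 2.3.3, and the tests were checked on simulated data.

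The member genes, the other genes of the family, the pathway and marker lists and the tests were chosen with earlier results of these data known. Genes were named by rule: the family, up to 3 pathway genes per role by smallest p for T618I, those that passed, and the 5 most alike genes at least 1 Mb away. C5ar1, C5ar2 and the marker genes were named, and the Spaca6 values were given, after their values had been seen. Alternatives were the window, scaling, filters, added length, peak number, a covariate, a replicate block and leaving out each library.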

Additional observations from a re-analysis of the deposited data

How the results depend on the processing

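Of 23 alternatives, the T618I change of Fpr1 kept its direction in all and its call in 20, and that of Fpr2 its call in 19. The exceptions were no scaling (0.67, adjusted p = 0.0502 by limma), the number of peaks (0.23, adjusted p = 0.327 by limma), leaving out replicate 2 of sgNT/T618I and, for Fpr2, the 10 kb window (0.31). Leaving out 1 library gave 0.37 to 0.47. For sgNT/T618I against sgNT/Empty, lists cut to equal length gave 0.74 (limma adjusted p = 0.0470). For sgB2/Empty against sgNT/Empty the sign changed for Fpr2 at 10 kb (0.011), and leaving out 1 library gave -0.17 to 0.0015. R1 changed sign with equal lists (3.95 scaled bp) and without scaling (71.2 bp). The limma value of R5 lost its call with 100 bp added (0.75) and with peak number as a covariate (0.49), and ranged from 0.41 to 0.59 with 1 library left out. The cause of these changes was not tested.

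Replicate numbers did not pair the libraries: 4 of 18 pairs of the same number had deviations correlated above 0.1 (range -0.16 to 0.22). With a replicate block the T618I value of Fpr1 and Fpr2 was 0.42 (limma adjusted p = 0.0196), no call at these genes changed, and 1036 genes were called in place of 992. That count was 372 at 10 kb, 1501 at 100 kb, 530 with stricter peaks, 397 by peak number, 642 with the covariate and 582, 617 and 625 without replicate 1, 2 or 3 of sgNT/T618I. Without scaling 837 genes rose and 16 fell, in place of 621 and 371. Depth is unknown, so a peak that was not called may lie below the threshold of its list.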
